A study of Mus musculus with 4 samples.

Results

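The response of mouse liver to partial hepatectomy was taken over both genotypes of the study. For each gene it was the mean log2 value of the 2 arrays at 30 h minus that of the 2 arrays at 0 h, called the shared difference here. The smaller of the 2 differences within a genotype was kept beside it. All 4 arrays of the series and all 19505 genes with 1 symbol entered, with 1 probe set per gene.

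The 4 groups were control and knockdown liver, each at 0 h and at 30 h after removal of 70% of the liver, with 1 array each of RNA pooled from 4 animals. Per the labels, all mice were male, of strain C57BL6J, 10 to 12 weeks old at injection, and, per the treatment protocol, carried MCUloxp/loxp alleles. AAV8-TBG-Cre was given through the tail vein to make the knockdown and AAV8-TBG-Null to make the control littermates, 5 weeks before surgery. The TBG promoter is active in hepatocytes; Mcu in other liver cells was not measured apart. The labels give the genotype of the controls as "Wild type", and the genotype label of the knockdown arrays differs from the protocol and the source name, which were followed. The description texts mention ethanol-fed liver on all 4 arrays and 1 h after surgery on the knockdown 30 h array, against its title and time label, which were followed. Loss of liver, the operation and the time of sampling cannot be told apart in a difference between 30 h and 0 h, since no sham-operated group was used here. Mcu, which encodes the pore of the mitochondrial calcium uniporter, was at 4.77 and 4.30 in control liver and at 2.83 and 2.63 in knockdown liver at 0 h and 30 h. Both knockdown arrays were thus below both control arrays, as labelled, and the shared difference of Mcu was -0.34 ± 0.28 (limma SE, adjusted p = 0.798).

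Most hepatocytes of an adult liver are out of the cell cycle. After partial hepatectomy the remnant releases cytokine and growth factor signals, hepatocytes make acute phase proteins, and they then pass from G1 into S phase before the liver returns to its mass. In the mouse, hepatocyte DNA synthesis begins on the second day. Liver also holds programmes set by sex, by the circadian clock and by bile acids, and these are the groups of genes described here.

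Both genotypes shared a set of strong changes, while over all genes the 2 responses were only weakly alike. Among the 9759 bright genes, taken as the brighter part of the table, with a mean no lower than that of the median gene (3.83), 153 were at least 2-fold higher at 30 h in both genotypes (1.57%) and 57 were at least 2-fold lower in both (0.584%). Over all 19505 genes the counts were 182 (0.933%) and 63 (0.323%). Among the bright ones, 28 passed 4-fold upward in both and 10 passed 4-fold downward in both. The 153 genes made up 26.2% of the 584 bright genes 2-fold higher in control liver and 59.3% of the 258 higher in knockdown liver. The 57 genes made up 36.3% of the 157 bright genes 2-fold lower in control liver and 21.3% of the 267 lower in knockdown liver. Conversely, 112 bright genes 2-fold higher in control liver had no positive difference in knockdown liver, and 6 bright genes passed 2-fold in opposite directions.

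**Figure D1:**
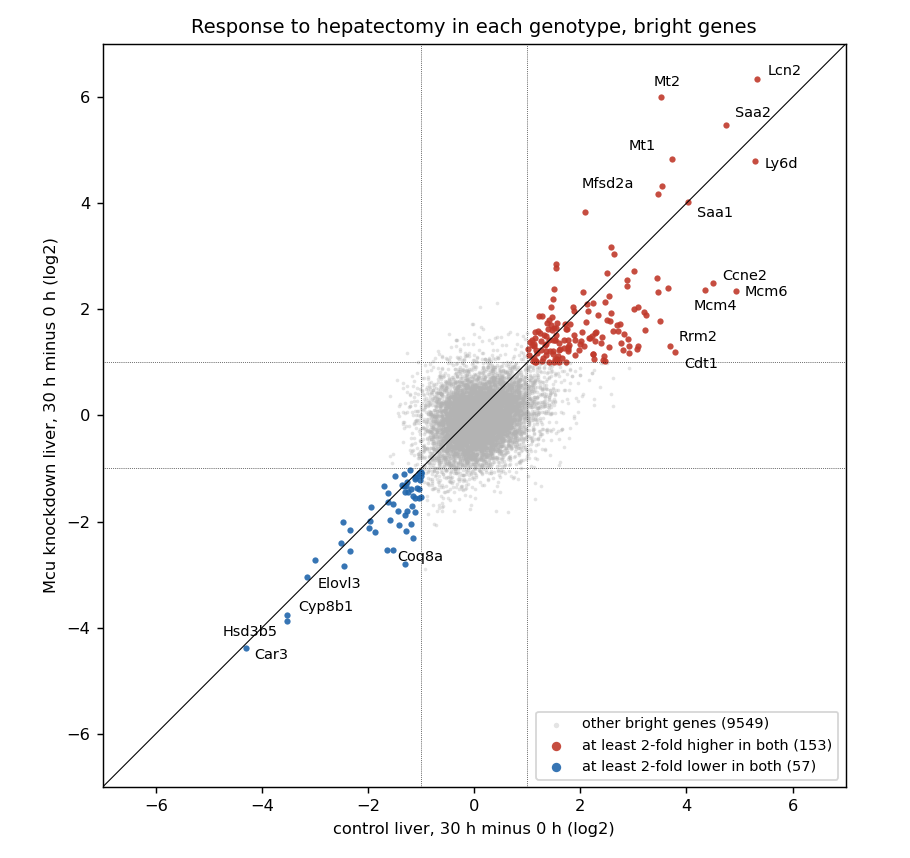
Each point is 1 of the 9759 bright genes, with its 30 h minus 0 h difference (log2) in control liver on the x axis and in Mcu knockdown liver on the y axis. Dotted lines mark 2-fold, the diagonal marks equal differences, and red and blue points are the 153 and 57 genes past 2-fold in the same direction in both. Lcn2, Saa2 and Ly6d lie at the upper right and Car3 at the lower left, near the diagonal, while Mcm6, Ccne2 and Mcm4 lie below it.

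The 2 responses use different arrays, and their likeness grew with expression level. The sign was the same in both for 53.5% of all genes and 56.9% of bright genes. These shares hold both directions, so genes higher in both, or lower in both, are a part of them. The counts of list members below that were higher or lower in both are to be read beside these shares. Of the bright genes, 23.8% had both 30 h arrays above both 0 h arrays and 19.6% had both below. Across all genes they correlated with Pearson's r of 0.282 (Spearman's rho 0.153), a description across genes that are not independent replicates. In 4 bins of nearly equal size, from the dimmest genes to the brightest, r was 0.048, 0.142, 0.272 and 0.651, and the share of genes with the same sign was 48.4%, 51.8%, 53.3% and 60.7%. The brightest bin thus had the highest r and the most genes of like sign.

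A linear model with a term for genotype and a term for time was fitted to all 19505 genes (limma, Benjamini-Hochberg adjustment, threshold 0.05). Its SE comes from how far the 2 genotypes' differences lay apart, so array noise and a true difference between genotypes both enter it. Each gene has 1 residual degree of freedom, against 10.04 borrowed over all genes. The SE is thus mostly a spread common to all genes, and says little of how well the genotypes matched in a single gene. For Saa1, with the same difference in both genotypes, it was still 0.28. The model called 139 genes higher (0.713%) and 34 lower (0.174%) at 30 h. Of the called genes, 57 of the 139 and 13 of the 34 belonged to one of 44 gene lists. All called genes also passed 2-fold in both genotypes. With this SE a call already needs differences of about that size in both, so the overlap follows from the model and adds no support. In what follows, rose and fell are written only of these genes. The calls rest on all 4 arrays: without any 1 of them, when the model keeps time alone, 0 to 4 genes were called higher and 0 lower. Without the genotype term, 52 of the 63 called genes that the naming rule picked kept the call, while Cdt1, Rrm2, Cdc45, Chaf1b, Fen1, Ube2c, Cdk1, Nek2, Mki67, Rad18 and Scd1 lost it (adjusted p = 0.052 to 0.163). An exact permutation test of 2 against 2 arrays cannot go below a two-sided p of 0.333.

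Acute phase proteins, which hepatocytes secrete in inflammation, held several of the largest increases. Of 26 measured members, 23 were higher at 30 h in both genotypes, 13 rose and 0 fell, and the median shared difference was 1.36, against -0.005 over all genes. Lcn2, a protein that binds bacterial iron carriers, measured 6.76 at 0 h and 12.09 at 30 h in control liver and 5.74 and 12.08 in knockdown liver. It rose by 5.84 ± 0.31 on the log2 scale, or 57.1-fold (adjusted p = 1.66e-05), and both 30 h arrays lay far above both 0 h arrays. Saa2, a serum amyloid A apolipoprotein, went from 7.02 to 11.76 in control liver and from 6.56 to 12.04 in knockdown liver (5.11 ± 0.30, 34.5-fold, adjusted p = 1.66e-05). Its close paralog Saa1 went from 7.42 to 11.44 and from 7.38 to 11.40, with the same difference of 4.02 in both genotypes (± 0.28, adjusted p = 5.68e-05). Orm2, one of 3 orosomucoid genes in the list, went from 7.77 to 11.31 and from 7.08 to 11.41 (3.94 ± 0.30, adjusted p = 9.66e-05). The orosomucoid and serum amyloid genes are near-copies, so probes of one may read another.

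Saa3, the amyloid gene made also by macrophages, rose by 2.96 ± 0.38 (adjusted p = 0.00457), from 7.17 to 9.25 in control liver and from 7.18 to 11.02 in knockdown liver. Apcs (serum amyloid P), Serpina3n (a protease inhibitor), Orm1, Orm3, Lrg1, Fgl1, Steap4 and Itih4 rose by 1.42 to 2.24. Other members of the list, chosen after their values were seen, were flat: the iron hormone Hamp at 0.08 ± 0.28 (adjusted p = 0.972), Crp at 0.23 ± 0.28 (adjusted p = 0.881) and the fibrinogen chain Fgg at 0.22 ± 0.28 (adjusted p = 0.891). Fgg was at 12.12 or above on every array, near the top of the values on these arrays. Of the 14 list members past 2-fold in both genotypes, 12 had the larger difference in knockdown liver.

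Metallothioneins, small proteins that bind zinc and copper, were among the genes that rose furthest. Mt1 went from 7.63 to 11.36 in control liver and from 6.94 to 11.77 in knockdown liver (4.28 ± 0.32, adjusted p = 9.66e-05). Mt2 went from 8.15 to 11.67 and from 6.02 to 12.03 (4.77 ± 0.47, adjusted p = 0.000785). The difference of Mt2 was thus 3.52 in control and 6.01 in knockdown liver, while the 30 h levels were close and the 0 h levels were apart. The other 6 members of the list, zinc transporters and the metal-sensing factor Mtf1, were not called, and their shared differences ran from -1.08 (Slc30a10) to 0.53 (Slc39a14).

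The promoters of both metallothionein genes are shown because they carry repeated metal response elements, the sites that Mtf1 binds. The windows span 300 bases around the start of the gene (RefSeq, GRCm38.p6, strand of the gene), at chr8:94178839-94179138 (+) for Mt1 and chr8:94172368-94172667 (+) for Mt2. Capitals mark the element's core, written TGCACNC or TGCGCNC and searched on both strands.
Mt1: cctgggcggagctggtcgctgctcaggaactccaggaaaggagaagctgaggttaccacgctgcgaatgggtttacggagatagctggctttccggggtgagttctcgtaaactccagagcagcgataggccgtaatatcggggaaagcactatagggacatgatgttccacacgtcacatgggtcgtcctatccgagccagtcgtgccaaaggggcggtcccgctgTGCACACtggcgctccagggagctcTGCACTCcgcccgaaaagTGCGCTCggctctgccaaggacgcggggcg
Mt2: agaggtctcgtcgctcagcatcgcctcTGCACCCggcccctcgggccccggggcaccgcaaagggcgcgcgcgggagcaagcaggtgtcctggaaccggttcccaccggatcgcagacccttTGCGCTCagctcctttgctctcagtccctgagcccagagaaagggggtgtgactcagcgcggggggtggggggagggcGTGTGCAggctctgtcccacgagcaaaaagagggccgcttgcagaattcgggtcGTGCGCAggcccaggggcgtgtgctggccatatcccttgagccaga
The window of Mt1 held 3 matches and that of Mt2 held 4. This short core is common: 28.2% of the 27025 genes with a promoter held at least 1, as did 4 of 6 members of the list. A match describes the letters only.

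**Figure D2:**
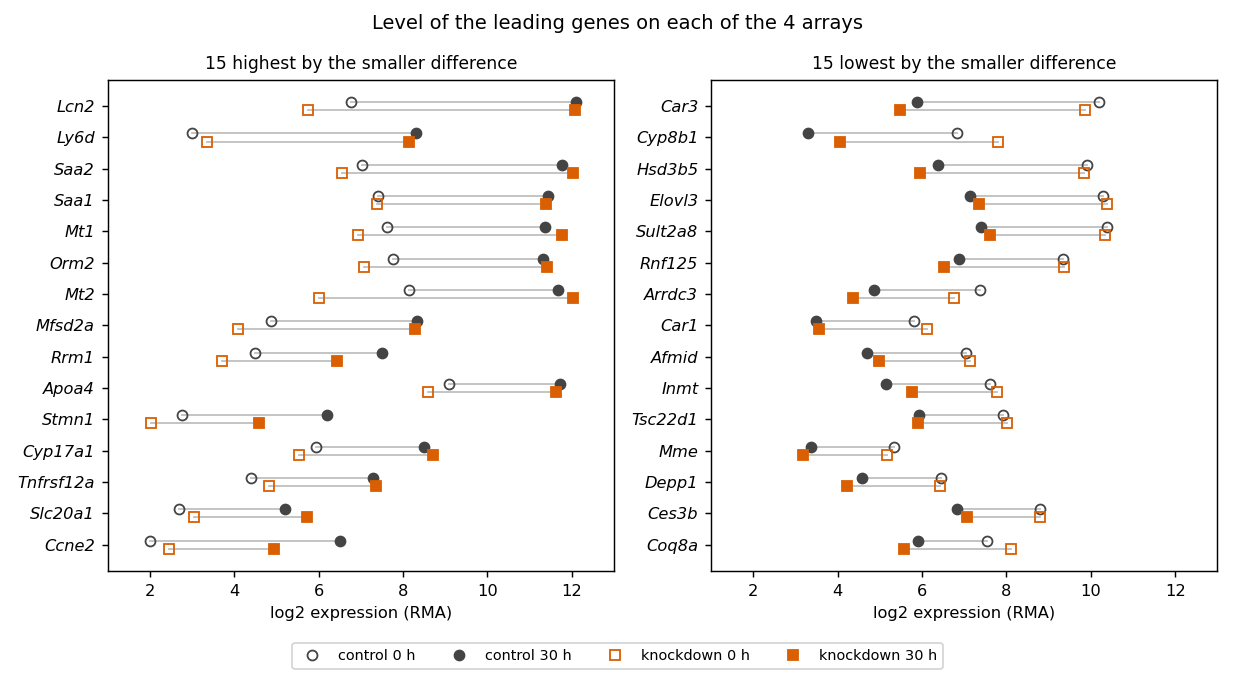
Log2 values on the 4 arrays are drawn for the 15 bright genes with the largest increase and the 15 with the largest decrease common to both genotypes, each point 1 array. The rule that picked these genes already sets the side on which the 30 h point lies within each genotype. Examples of 0 h against 30 h values are Lcn2 (5.74 and 6.76 against 12.08 and 12.09) and Car3 (9.85 and 10.20 against 5.47 and 5.89).

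Genes of DNA replication and cell division leaned up at 30 h. Over 5 lists with 132 measured genes, 107 were higher at 30 h in both genotypes, 6 were lower in both and 19 differed in sign; 31 rose and 0 fell, and the median shared difference was 0.80. Where the increases passed 2-fold in both genotypes they were larger in control liver for 32 of 35 genes, and the median gap between the genotypes was -0.90 (knockdown minus control). No test of that gap was possible with 1 array per group.

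Origin licensing is the loading of the Mcm2-7 helicase onto DNA in G1. The list's median shared difference was 1.42, the highest of the 34 pathway lists, with 8 of 19 measured genes called higher. The median was 2.04 in control and 0.66 in knockdown liver. Mcm6, a helicase subunit, went from 2.67 to 7.60 in control liver and from 3.88 to 6.23 in knockdown liver (3.64 ± 0.48, adjusted p = 0.00467). Mcm4 went from 2.51 to 6.85 and from 2.88 to 5.25 (3.36 ± 0.40, adjusted p = 0.00305). Their 30 h values stood above both 0 h values in each genotype, and the control liver reached the higher level. Mcm5 (2.57 ± 0.33, adjusted p = 0.00464) and Mcm2 (2.57 ± 0.34, adjusted p = 0.00511) rose by about the same amount. Cdt1, which loads the helicase, went from 2.77 to 6.56 and from 4.83 to 6.02 (2.49 ± 0.48, adjusted p = 0.0364). It lost the call after median centring (adjusted p = 0.0829) and after cyclic loess (adjusted p = 0.0646). Cdc45, Cdc6 and Mcm3 rose by 1.81 to 2.23.

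Promoters of the helicase genes are shown for their E2F sites, the motif bound by the E2F factors that switch on S phase genes. The windows are chr1:128359656-128359955 (-) for Mcm6 and chr8:75109259-75109558 (+) for Mcm5, each read on the gene's strand. Capitals mark TTTCCCGC, TTTCGCGC, TTTGCCGC or TTTGGCGC on either strand.
Mcm6: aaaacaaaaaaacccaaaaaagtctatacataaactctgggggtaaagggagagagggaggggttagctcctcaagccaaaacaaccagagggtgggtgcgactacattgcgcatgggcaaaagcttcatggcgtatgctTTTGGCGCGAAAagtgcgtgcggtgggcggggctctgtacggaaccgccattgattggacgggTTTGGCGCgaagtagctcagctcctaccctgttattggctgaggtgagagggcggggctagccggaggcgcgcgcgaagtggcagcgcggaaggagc
Mcm5: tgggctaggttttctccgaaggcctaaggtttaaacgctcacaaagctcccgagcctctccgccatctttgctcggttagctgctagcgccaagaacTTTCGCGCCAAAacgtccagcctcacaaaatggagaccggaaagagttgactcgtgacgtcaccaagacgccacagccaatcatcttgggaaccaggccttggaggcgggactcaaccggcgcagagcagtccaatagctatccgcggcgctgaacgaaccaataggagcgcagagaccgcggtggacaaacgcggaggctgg
Mcm6 held 3 matches and Mcm5 held 2, while the windows of Mcm2, Rrm1 and Pcna held 0. At least 1 match stood in 7 of 14 licensing genes with a promoter (50%), 8 of 28 replication fork genes (28.6%) and 7 of 18 G1 to S genes (38.9%), against 2.6% of all 27025. It stood in 16 of 111 genes called higher (14.4%) and in 0 of 28 called lower. Several of these genes are textbook E2F targets, so the shares describe the lists and test nothing.

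At the replication fork and in the supply of deoxynucleotides, 27 of 32 genes were higher in both genotypes and 9 were called. Rrm1, the large subunit of ribonucleotide reductase, went from 4.49 to 7.51 and from 3.72 to 6.44 (2.87 ± 0.28, adjusted p = 0.000785). Its partner Rrm2 went from 3.40 to 7.09 in control liver but from 4.20 to 5.5 in knockdown liver (2.5 ± 0.45, adjusted p = 0.0271), and lost the call after median centring (adjusted p = 0.0631). Pcna, the sliding clamp, rose from 6.83 to 9.84 and from 7.13 to 9.13 (2.51 ± 0.31, adjusted p = 0.00394). Uhrf1, which carries DNA methylation through replication, reached nearly equal levels, from 4.34 to 6.22 and from 4.24 to 6.2 (1.92 ± 0.28, adjusted p = 0.00757). Chaf1b, Asf1b, Fen1, Pole and Prim1 rose by 1.55 to 2.20.

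Among 23 cyclins, kinases and E2F factors of the G1 to S step, only Ccne1 and Ccne2 were called, both cyclins that activate Cdk2. Ccne2 went from 2.01 to 6.51 in control liver and from 2.45 to 4.94 in knockdown liver (3.5 ± 0.41, adjusted p = 0.00237). Ccne1 went from 4.03 to 6.58 and from 4.48 to 6.25 (2.16 ± 0.30, adjusted p = 0.00632). E2f1, an activating E2F factor, stood at 1.21 ± 0.33 (adjusted p = 0.188) and Skp2, which marks cell cycle inhibitors for destruction, at 1.11 ± 0.29 (adjusted p = 0.161).

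Mitosis and cytokinesis genes had a median of 0.85, with 32 of 41 higher in both genotypes and 8 called. Cdk1, the mitotic kinase, went from 2.75 to 5.49 and from 1.94 to 3.78 (2.29 ± 0.31, adjusted p = 0.00521). Smc4, a condensin subunit, rose by 2.57 ± 0.32 (adjusted p = 0.00355) and Ube2c, which serves the anaphase-promoting complex, by 2.26 ± 0.29 (adjusted p = 0.00462). Mki67, the proliferation marker, went from 3.91 to 6.18 and from 3.20 to 4.75 (1.91 ± 0.30, adjusted p = 0.0124). Pbk, Nek2, Mad2l1 and Plk1 rose by 1.67 to 2.61. Some familiar members missed the threshold: Aurka at 1.37 ± 0.32 (adjusted p = 0.102) and Top2a at 0.67 ± 0.28 (adjusted p = 0.491). The CHR element (TTTGAA, either strand), a site of the complex that times mitotic genes, stood in 26 of 34 mitosis promoters (76.5%) against 20.2% of all promoters. In genes called higher it stood in 22 of 111 (19.8%). The CCAAT box stood in 76.5% of mitosis promoters against 41.1% of all. It was not particular to them: 15 of 15 cholesterol synthesis and uptake promoters and 16 of 19 endoplasmic reticulum chaperone promoters (84.2%) held it. These shares test nothing.

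Recombination, Fanconi and mismatch repair genes, which act on stalled forks and strand breaks, had a median of 0.66, with 15 of 17 higher in both genotypes and 4 called. Their medians were the closest of the 5 cell cycle lists, 0.85 in control and 0.68 in knockdown liver. Of the 5 members past 2-fold in both genotypes, however, 4 had the larger difference in control liver and 1 in knockdown liver. The median gap of these 5 was -0.80 (knockdown minus control). Chek1, the checkpoint kinase of stalled forks, went from 4.34 to 5.89 and from 4.21 to 5.86 (1.60 ± 0.28, adjusted p = 0.0218), nearly the same in both. Brca2, which loads the recombinase, rose by 2.11 (adjusted p = 0.0219). Rad18, a ubiquitin ligase that acts on Pcna, rose by 1.95 ± 0.39 (adjusted p = 0.0437), but lost the call after median centring (adjusted p = 0.0912), cyclic loess (adjusted p = 0.0937) and quantile normalization (adjusted p = 0.0638). Blm, a helicase of recombination, rose by 1.68 ± 0.30 (adjusted p = 0.0254) and lost the call after median centring (adjusted p = 0.0505).

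Genes of the histone clusters, a group chosen after the values were seen, were also higher. Of 57 measured, 44 were higher in both genotypes and 13 rose, by 1.66 to 2.16, while 0 were called lower and 7 were lower in both; all 13 had the larger difference in control liver. Histone genes are near-identical copies, so these counts are not of independent genes.

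Inhibitors of the cell cycle and p53 targets gave no call in limma among 17 genes (4 higher and 1 lower at an unadjusted p under 0.05). Cdkn1a, the p21 inhibitor of cyclin-dependent kinases, stood at 4.05 and 6.67 in control liver and at 5.89 and 6.59 in knockdown liver, so its levels at 30 h were close and those at 0 h were not (1.66 ± 0.40, adjusted p = 0.115). Btg2, an antiproliferative p53 target, stood at 0.94 ± 0.28 (adjusted p = 0.268).

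**Figure D3:**
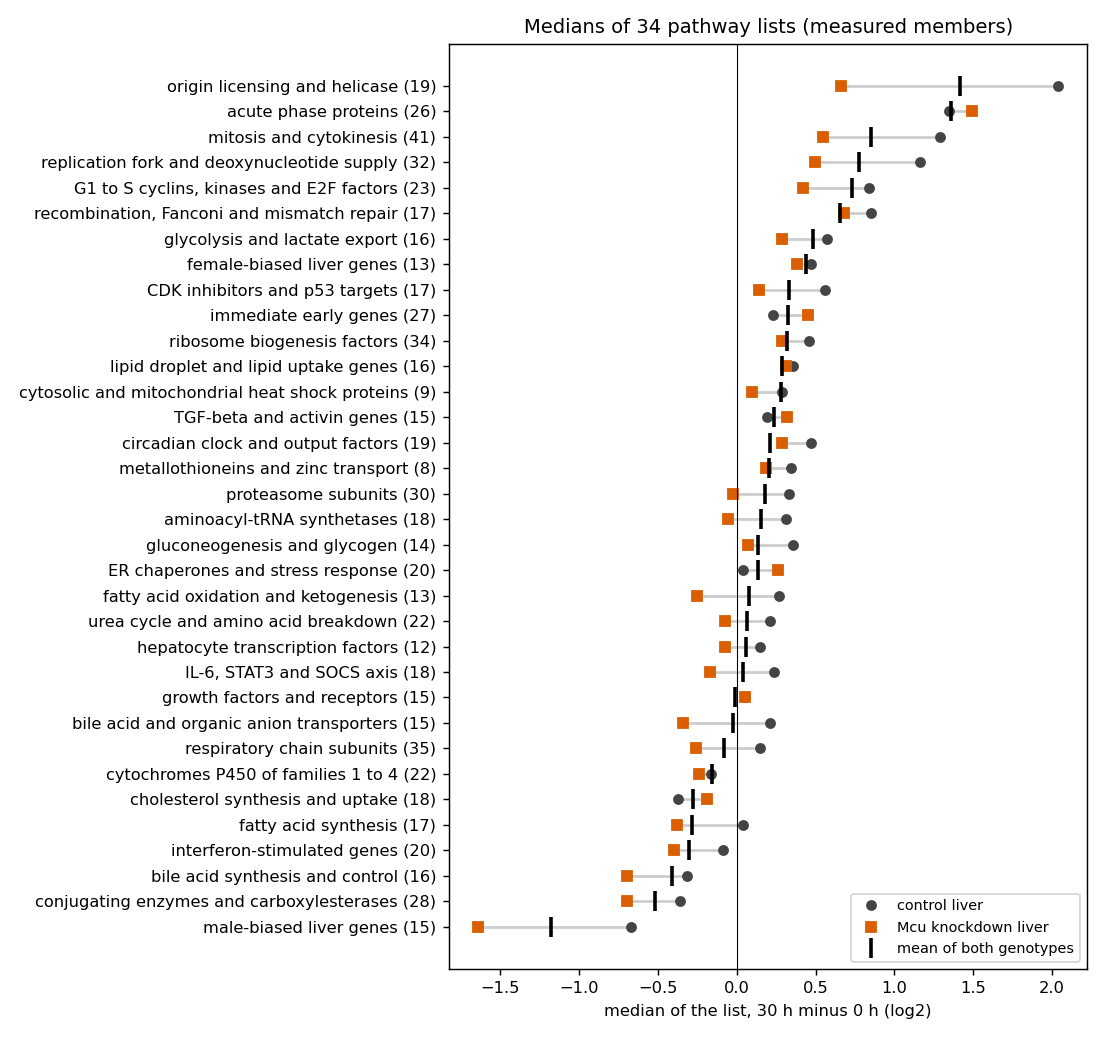
For each of 34 pathway lists, the median 30 h minus 0 h difference (log2) of its measured members is drawn for control liver (circle), Mcu knockdown liver (square) and the mean of both genotypes (bar), with the number of members in parentheses. By the mean of both genotypes, licensing (1.42) and male-biased genes (-1.18) mark the ends; in knockdown liver the acute phase list (1.49) lies above licensing (0.66).

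Genes of the early signals of regeneration gave 1 call at 30 h. Of 27 immediate early genes, Egr1 alone was called, a zinc finger factor induced by growth signals, from 6.04 to 7.93 and from 6.13 to 7.56 (1.66 ± 0.28, adjusted p = 0.0206). Jun stood at 0.83 ± 0.28 (adjusted p = 0.346), and Myc was at 4.43 and 4.56 in control but 3.88 and 5.54 in knockdown liver (0.90 ± 0.36, adjusted p = 0.476). The IL-6, STAT3 and SOCS list, the cytokine path to acute phase genes, had no call among 18 genes (4 higher and 2 lower at an unadjusted p under 0.05) and a median of 0.04, which turned to -0.02 after cyclic loess and -0.05 after quantile normalization. Its member past 2-fold in both genotypes was Cebpd, a factor of the acute phase (1.21 ± 0.28, adjusted p = 0.1). The feedback inhibitor Socs3 stood at 3.30 and 4.95 in control liver and at 5.37 and 5.11 in knockdown liver. A STAT site (TTCNNNGAA) stood in 7 of 22 acute phase promoters (31.8%) against 9.55% of all, and in 0 of the windows of Lcn2, Saa1, Saa2 and Orm2. The site was not particular to that list: it stood in 5 of 13 promoters of bile acid and organic anion transporters (38.5%). Of genes called higher, 10 of 111 held it (9.01%). These shares test nothing. Growth factors and their receptors (15 genes) and TGF-beta and activin genes (15 genes) had no call in limma, with 1 higher and 2 lower, and 3 higher and 1 lower, at an unadjusted p under 0.05.

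Genes that mark the male liver, which are held up by pulses of growth hormone, were lower at 30 h. All 15 measured male-biased genes were lower at 30 h in both genotypes, 6 fell, and the median was -1.18, or -0.67 in control and -1.64 in knockdown liver. Hsd3b5, a steroid reductase of male liver, went from 9.90 to 6.38 and from 9.83 to 5.95 (-3.70 ± 0.28, adjusted p = 9.66e-05). Elovl3, which extends very long fatty acids, went from 10.29 to 7.14 and from 10.39 to 7.34 (-3.10 ± 0.28, adjusted p = 0.00039). Sult2a8, a sulfotransferase of bile acids, went from 10.39 to 7.39 and from 10.33 to 7.61 (-2.86 ± 0.28, adjusted p = 0.000785). The differences of these 3 genes in the genotypes lay within 0.36 of each other. Slco1a1, an organic anion carrier (-1.63), Selenbp2 (-1.60) and Keg1 (-1.74) fell as well, whereas Mup20, a major urinary protein, stood at -0.29 ± 0.28 (adjusted p = 0.835). Of 13 female-biased genes, Cyp17a1 alone was called: this steroid 17-alpha-hydroxylase went from 5.93 to 8.5 and from 5.54 to 8.71 (2.87 ± 0.29, adjusted p = 0.000923). In that list 7 genes were higher in both genotypes and 1 was lower in both.

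The gene with the largest decrease was Car3, a cytosolic carbonic anhydrase of hepatocytes and fat cells. It went from 10.20 to 5.89 in control liver and from 9.85 to 5.47 in knockdown liver, a decrease by 4.35 ± 0.28 (20.3-fold, adjusted p = 3.14e-05), with no overlap between times. Its relative Car1 went from 5.82 to 3.48 and from 6.12 to 3.57 (-2.45 ± 0.28, adjusted p = 0.00187).

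Bile acid synthesis genes leaned down, with 10 of 16 lower in both genotypes and 1 call. Cyp8b1, the 12-alpha-hydroxylase that sets the share of cholic acid, went from 6.84 to 3.31 and from 7.81 to 4.05 (-3.65 ± 0.28, 12.5-fold lower, adjusted p = 9.66e-05). Cyp7a1, the rate-limiting enzyme of the pathway, stood at -0.44 ± 0.28 (adjusted p = 0.707), and Cyp27a1 of the alternative pathway at -0.82 ± 0.28 (adjusted p = 0.349). The 15 bile acid and organic anion transporters did not lean, with 5 higher and 3 lower in both genotypes and a median of -0.02. Among them Slco1a1 fell and Slc51b, the beta subunit of the basolateral bile acid exporter, rose, from 4.21 to 5.82 and from 2.74 to 4.00 (1.44 ± 0.28, adjusted p = 0.0398).

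Detoxifying enzymes leaned down too. Of 28 conjugating enzymes and carboxylesterases, 20 were lower in both genotypes and 3 fell, with a median of -0.52. They were the carboxylesterases Ces3b (-1.84 ± 0.28, adjusted p = 0.0107) and Ces1e (-1.62 ± 0.28, adjusted p = 0.0219) and the glucuronosyltransferase Ugt2b1 (-1.78 ± 0.28, adjusted p = 0.0141). Of 22 cytochromes P450, 12 were lower in both and 6 higher in both. The single call was Cyp2b10, a target of the xenobiotic receptor CAR, which rose from 6.24 to 7.76 and from 6.23 to 7.65 (1.47 ± 0.28, adjusted p = 0.0321).

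In lipid metabolism the largest change was in Mfsd2a, a carrier of lysophospholipids, which went from 4.87 to 8.33 and from 4.10 to 8.28 (3.82 ± 0.30, 14.1-fold, adjusted p = 0.000103). Apoa4, an apolipoprotein, rose from 9.08 to 11.72 and from 8.59 to 11.63 (2.84 ± 0.28, adjusted p = 0.000866). Scd1, which desaturates fatty acids, fell from 9.85 to 8.22 and from 10.54 to 9.08 (-1.55 ± 0.28, adjusted p = 0.0254). No gene of cholesterol synthesis (18 genes, 10 lower in both genotypes), of fatty acid oxidation (13 genes) or of the respiratory chain (35 genes) was called by limma. At an unadjusted p under 0.05 there were 0 higher and 3 lower, 0 and 0, and 1 higher and 0 lower. In sugar metabolism, Pfkfb3, which makes the activator of glycolysis, rose by 1.75 ± 0.29 (adjusted p = 0.0179), and 11 of 16 glycolysis genes were higher in both. Ppargc1a, a coactivator of gluconeogenesis and mitochondrial genes, rose from 4.88 to 6.65 and from 4.86 to 6.29 (1.60 ± 0.28, adjusted p = 0.0231). Ppp1r3c, which targets phosphatase to glycogen, fell from 7.0 to 5.69 and from 7.76 to 4.96 (-2.06 ± 0.36, adjusted p = 0.0219).

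Enzymes of the urea cycle and amino acid breakdown gave no call in limma among 22 genes, with 8 higher and 3 lower at an unadjusted p under 0.05. Of the 22 genes, 10 were higher and 9 lower in both genotypes. Otc, which makes citrulline, was at 10.01 and 9.0 in control liver and at 9.77 and 8.68 in knockdown liver (-1.05 ± 0.28, adjusted p = 0.165). Slc25a15, the carrier that feeds it ornithine, was at 8.51 and 9.66 and at 8.49 and 9.47 (1.07 ± 0.28, adjusted p = 0.159), and Asl, the lyase of the same cycle, was at 8.86 and 9.90 and at 8.90 and 9.83 (0.99 ± 0.28, adjusted p = 0.209). The times did not overlap for any of these 3, which were singled out after their values were seen. The same held upward for 23.8% and downward for 19.6% of all bright genes. Among 12 hepatocyte transcription factors, Cebpa, which restrains hepatocyte division, was at 8.41 and 7.36 and at 8.57 and 7.18 (-1.22 ± 0.28, adjusted p = 0.0932), while Hnf4a stood at 0.11 ± 0.28 (adjusted p = 0.964). Of 20 interferon-stimulated genes, 11 were lower and 2 higher in both genotypes, and none was called by limma (0 higher and 3 lower at an unadjusted p under 0.05).

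Circadian genes split in direction. Of 19 clock and output genes, 3 rose and 1 fell. Arntl (Bmal1), the activator at the core of the clock, went from 4.68 to 2.66 and from 4.66 to 2.95 (-1.87 ± 0.28, adjusted p = 0.0105). The 3 that rose were Ciart, a repressor of the clock, from 2.53 to 5.37 and from 2.64 to 4.36 (2.28 ± 0.32, adjusted p = 0.00703), Usp2, a deubiquitinase, by 2.17 ± 0.35 (adjusted p = 0.016), and the factor Dbp by 1.81 ± 0.30 (adjusted p = 0.0165). Nr1d1, a repressor of Arntl, stood at -1.30 ± 0.28 (adjusted p = 0.0657) and Per1 at 1.27 ± 0.29 (adjusted p = 0.092). The hour of day at which the 0 h and 30 h livers were taken is not given in the sources used here, and 30 h is not a whole number of days, so time of day and hepatectomy cannot be told apart in these genes.

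The promoter of Ciart is shown because it holds several E-boxes (CACGTG, in capitals), the site of Arntl and its partner. It lies at chr3:95882179-95882478 (-).
Ciart: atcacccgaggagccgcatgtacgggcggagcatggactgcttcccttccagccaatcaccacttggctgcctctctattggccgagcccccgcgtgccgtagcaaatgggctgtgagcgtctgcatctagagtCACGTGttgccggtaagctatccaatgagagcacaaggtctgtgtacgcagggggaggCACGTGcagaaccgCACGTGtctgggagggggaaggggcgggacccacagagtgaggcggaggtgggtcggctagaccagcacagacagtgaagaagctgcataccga
It held 3 matches, and E-boxes stood in 5 of 17 clock promoters (29.4%) against 8.09% of all promoters. They also stood in 6 of 22 immediate early promoters (27.3%) and in 11 of 111 genes called higher (9.91%). The windows of Dbp, Usp2 and Arntl held 0.

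**Figure D4:**
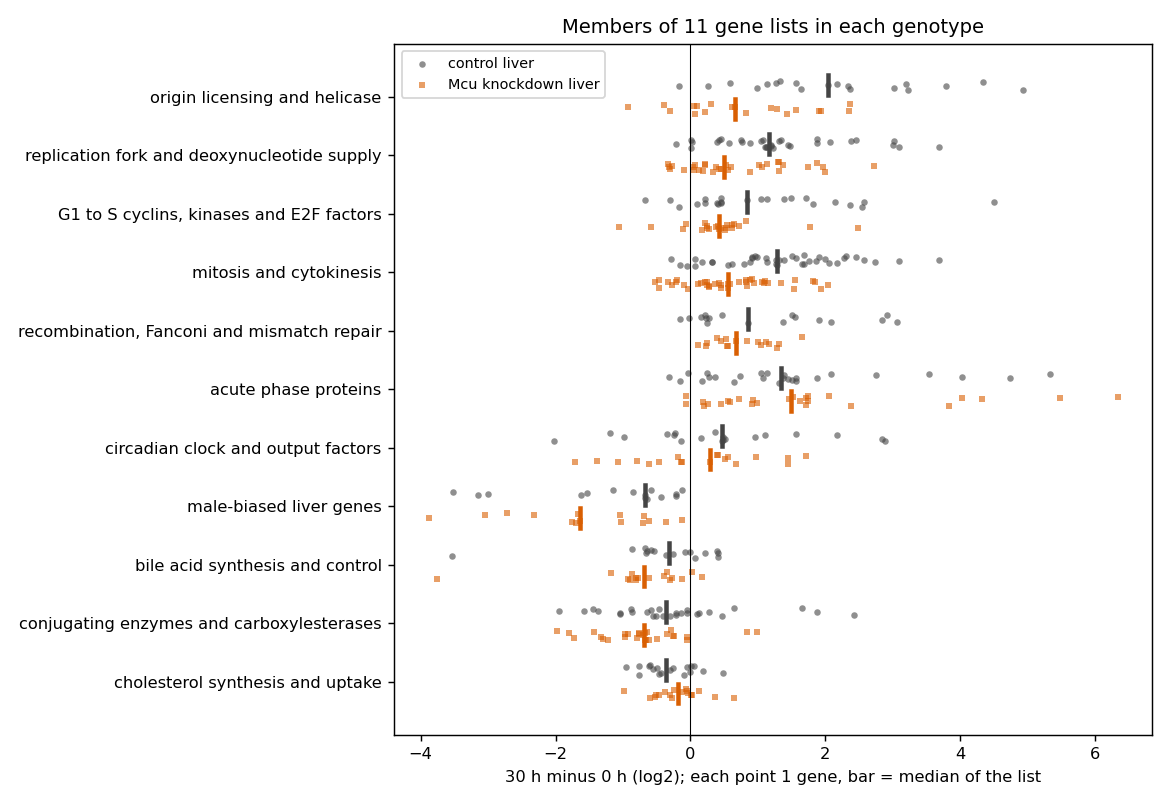
Each point is 1 measured member of a gene list, at its 30 h minus 0 h difference (log2) in control liver and in Mcu knockdown liver. The acute phase medians lie close together (1.34 and 1.49), the licensing medians lie apart (2.04 and 0.66), and all 15 male-biased points are below 0 in both genotypes.

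Genes of protein synthesis and turnover gave no call. Of 34 ribosome biogenesis factors, 25 were higher in both genotypes and 0 lower in both, with a median of 0.32 and 5 higher at an unadjusted p under 0.05 (limma). Aminoacyl-tRNA synthetases (18 genes, median 0.16), proteasome subunits (30 genes, 0.18), chaperones of the endoplasmic reticulum (20 genes, 0.14) and heat shock proteins (9 genes, 0.28) had no call either, with 1 higher and 1 lower, 0 and 1, 0 and 0, and 1 and 0 at an unadjusted p under 0.05. The chaperone median was -0.02 after quantile normalization.

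Among the called genes in no list, 82 rose and 21 fell. By the smaller of the 2 differences, those that rose were led by Ly6d, Apoa4 (above), Stmn1, Tnfrsf12a and Slc20a1. Ly6d, a surface protein better known from lymphocytes and epithelia, went from 3.0 to 8.30 and from 3.35 to 8.15 (5.05 ± 0.29, 33.1-fold, adjusted p = 1.66e-05), second after Lcn2 by that measure. The mean level of 7 B cell markers ran from 2.55 to 2.83 over the arrays, and the part of such cells in the value of Ly6d was not tested. Tnfrsf12a, the receptor of the cytokine TWEAK, went from 4.40 to 7.28 and from 4.82 to 7.37 (2.72 ± 0.28, adjusted p = 0.00105). Stmn1, which destabilises microtubules, rose by 3.02 ± 0.30 (adjusted p = 0.000923), and the phosphate carrier Slc20a1 by 2.60 ± 0.28 (adjusted p = 0.00129). The genes that fell included Rnf125, a ubiquitin ligase (-2.65 ± 0.28, adjusted p = 0.00129), the arrestin-like Arrdc3 (-2.46 ± 0.28, adjusted p = 0.00178), and Afmid, Inmt, Tsc22d1, Depp1, Mme and Coq8a (-1.98 to -2.25).

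Further genes outside the lists were picked after their values were seen. The hepatocyte keratins Krt8 and Krt18 rose by 1.77 ± 0.28 (adjusted p = 0.0131) and 1.72 ± 0.28 (adjusted p = 0.0149), with Krt8 going from 8.09 to 9.89 and from 8.12 to 9.85. Alas1, the first enzyme of heme synthesis in liver, went from 7.85 to 10.08 and from 8.0 to 10.12 (2.18 ± 0.28, adjusted p = 0.00409). Nnmt, which methylates nicotinamide, went from 8.42 to 10.56 and from 8.40 to 10.37 (2.06 ± 0.28, adjusted p = 0.00521). Wee1, the kinase that holds back Cdk1, went from 3.54 to 6.08 and from 3.27 to 5.52 (2.40 ± 0.28, adjusted p = 0.00233). Bcl6, a repressor that is itself male-biased in liver, fell from 5.45 to 4.26 and from 5.84 to 3.8 (-1.62 ± 0.30, adjusted p = 0.0323).

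The cell types of the tissue were followed by their markers. The 10 hepatocyte markers had mean levels of 11.4 to 11.5 on every array and no call. The mean level of 11 Kupffer cell markers ran from 5.08 to 5.63 over the arrays, of 12 stellate markers from 4.68 to 5.01 and of 11 neutrophil markers from 2.93 to 3.17. The list of 12 sinusoidal endothelial markers had 7 members lower in both genotypes, 0 higher in both and a median of -0.37, with no call. Of 5 erythroid markers, 3 were lower and 1 higher in both, with a median of -0.395 and no call. Marco, a scavenger receptor of Kupffer cells, was the only marker called, from 3.61 to 6.23 and from 4.04 to 5.63 (2.11 ± 0.32, adjusted p = 0.0105), while Clec4f, which defines these cells, stood at -0.25 ± 0.28. In whole tissue, fewer cells of a type and less RNA per cell cannot be told apart. The part of cell composition in the results above was not tested.

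**Figure D5:**
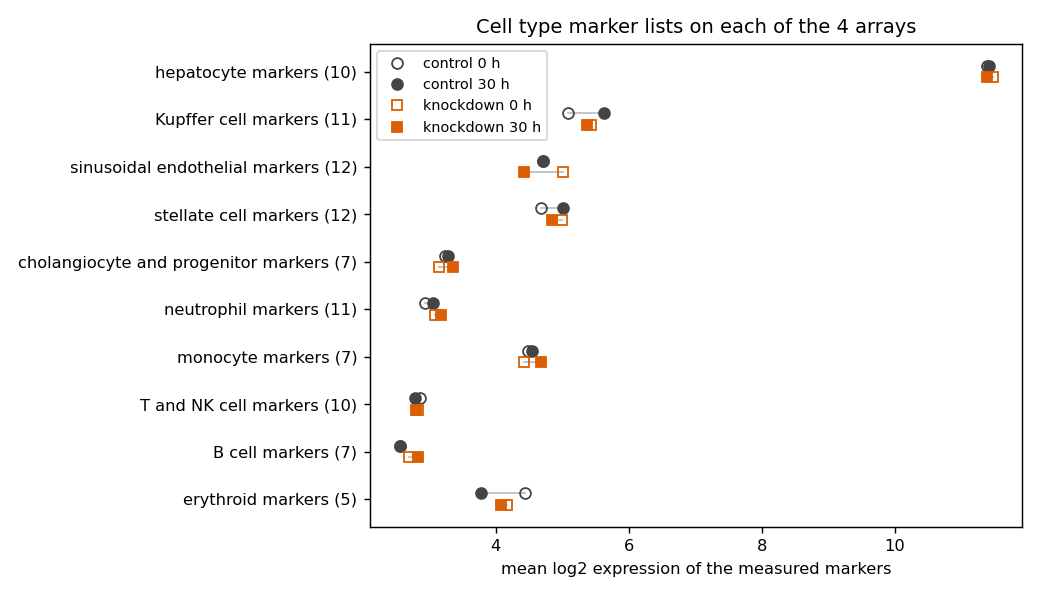
Mean log2 level of the measured markers of 10 cell types on each of the 4 arrays. Hepatocyte markers stay at 11.4 to 11.5, and Kupffer cell markers range from 5.08 to 5.63.

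The shared changes were not of the same size on the arrays of the 2 genotypes. Over all bright genes the median difference was 0.10 in control and -0.04 in knockdown liver, a lean the same way as the counts that follow. Of the 153 bright genes 2-fold higher in both, 105 had the larger difference in control liver, 46 in knockdown liver and 2 were equal, with medians of 1.87 and 1.47. Of the 57 lower genes, 12 had the larger decrease in control liver, 43 in knockdown liver and 2 were equal, with medians of -1.31 and -1.64. Among the bright genes past 2-fold in both, the 5 with the widest gap were Cdt1, Mcm6, Rrm2 and Ccne2, all larger in control liver by 2.01 to 2.60, and Mt2, larger in knockdown liver by 2.49. With 1 array per group these gaps carry no error and were not tested.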

How the data were processed

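RNA from liver tissue was measured on 4 whole-transcript arrays, 1 for each combination of genotype and time, grouped by title; per the labels' protocols, RNA integrity was checked and the GeneChip WT Plus kit gave biotin-labelled cDNA. The authors deposited log2 values for each probe set; the submitters' processing notes name RMA and Affymetrix Expression Console. RMA is meant to equalise the arrays' distributions, so a shift of all genes would not be seen. For its parameters and any genome build, nothing is given in the sources used here. Array medians lay between 3.75 and 3.84. The SD of the values was 1.96 on the control 30 h array and 1.83 to 1.88 on the other arrays. Detection calls were not used; low values are noisier, and their folds are understated. Depth does not apply to arrays: their number limits the precision.

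Of 22206 probe sets, 19572 carried 1 gene symbol, 0 carried several and 2634 were unnamed. All 19572 matched a gene ID of the RefSeq annotation of GRCm38.p6. For 55 of the 19505 genes with several probe sets, the one with the highest mean was kept. Promoter windows and coordinates come from RefSeq on GRCm38.p6; Mcm4, Ccne2 and Stmn1 have no window shown.

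limma 3.58.1 in R 4.3.3 fitted genotype and time to all genes, with empirical Bayes moderation and Benjamini-Hochberg adjustment. The 2 genotypes are not replicates of one group, so the p-values do not weigh the shared difference against a spread between replicates. They weigh it against how far the genotypes' differences lay apart, mostly as borrowed over all genes. When the script was tested on simulated data of this design, its calls included more false ones than the threshold states. A 2-fold rule in both genotypes was used beside it, without a test. No set test was run. The alternatives were other scalings, filters, thresholds, probe set rules, model settings and leaving out each array.

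Genes were named by rule: the 15 bright genes with the largest and the 15 with the smallest value of the smaller difference, without predicted genes, structural RNAs and receptor families; up to 5 members of each list that differed most in the direction of its median; the 5 with the widest gap between genotypes; Mcu; and cell type markers. Other list members and genes in no list were named after their values were seen. The comparison, the lists and the rule were chosen with earlier results of these data known. A label on some arrays is not reported here.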

Additional observations from a re-analysis of the deposited data

Results flagged for a closer look

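In some gene lists the median difference between 30 h and 0 h had opposite signs in the 2 genotypes. The same held for genes at large: the median was 0.10 in control and -0.04 in knockdown liver over bright genes. Over the genes below the median level it was -0.11 and 0.05. The medians of the lists were not corrected for this lean. With 1 array per group, none of these differences was tested. In metabolism, fatty acid synthesis had a median of 0.04 in control and -0.38 in knockdown liver, fatty acid oxidation and ketogenesis 0.27 and -0.25, the respiratory chain 0.15 and -0.26, urea cycle and amino acid breakdown 0.21 and -0.075, and bile acid and organic anion transporters 0.21 and -0.34. Among genes of protein synthesis and turnover, aminoacyl-tRNA synthetases stood at 0.31 and -0.055 and proteasome subunits at 0.33 and -0.025. The IL-6, STAT3 and SOCS list stood at 0.235 and -0.17, and hepatocyte transcription factors at 0.15 and -0.075.

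Of the cell type lists, Kupffer cell markers had medians of 0.33 in control and -0.42 in knockdown liver, stellate cell markers 0.235 and -0.325, T and NK cell markers -0.09 and 0.005, and B cell markers -0.18 and 0.11.

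Probe sets without a gene symbol took no part in the comparisons. Among 1139 of them that were bright, 38 were at least 2-fold different in the same direction in both genotypes, 32 higher (2.81%) and 6 lower (0.527%), against 1.57% and 0.584% of bright genes.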

How the results depend on the processing

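The count of genes called by limma, 139 higher and 34 lower, kept within 1.5 times under median centring, cyclic loess, the mean of probe sets, robust moderation and bright genes alone. Quantile normalization called 52 lower. An intensity trend called 231 higher and 78 lower, probe sets in place of genes 85 and 21, and a model with no genotype term 85 higher. Without 1 array, with time alone in the model, 0 to 4 genes were called higher (4 without the control 0 h array) and 0 to 0 lower, against 531 to 1092 higher and 433 to 767 lower at an unadjusted p under 0.05. The full model had 1065 and 719 at that level. The 2-fold rule, with 153 higher and 57 lower, gave 407 and 262 at 1.5-fold, 48 and 16 at 3-fold, and 99 higher among genes above percentile 75 of mean level. Requiring 2-fold in all 4 pairings of a 30 h with a 0 h array, chosen after seeing the data, left 130 and 43. The rule needs both arrays of each genotype, so it has no value without 1 of them. Of 216 named genes 63 were called, 51 of them under each of the 7 settings run for named genes on 4 arrays (3 scalings, the mean of probe sets, no genotype term, intensity trend and robust moderation); with no genotype term 52 were. Without 1 array each of the 63 lost its call at least once. No named gene reversed its sign with a call. Medians of uncalled lists near 0 changed sign under some scalings, as given for the IL-6 and chaperone lists; those of hepatocyte markers, hepatocyte transcription factors, stellate markers, fatty acid oxidation and urea cycle genes did too. No paired analysis was possible because each group holds 1 array and the labels give no replicate number; genotype is already a term of the model.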
